A study of Mus musculus with 4 samples.

Results

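The transcripts described here are those of 10 genes through which helper T cells act on other cells: the cytokine genes Ifng, Il2, Tnf, Il4, Il13, Csf2, Il17a and Il21, the membrane-bound ligand gene Cd40lg and the chemokine gene Ccl5. They were taken by symbol from a table of 24452 genes in capitals, in which all 10 were listed (IFNG, IL2, TNF, IL4, IL13, CSF2, IL17A, IL21, CD40LG and CCL5). The cells were liver regulatory T cells (Tregs) of young mice, with 2 RNA-sequencing libraries from Altre-KO mice and 2 from Altre-WT mice. Altre is a long non-coding RNA of Tregs, and in Altre-KO it was knocked out. The labels give no treatment and do not say how the knockout was made, how old the mice were or how many mice went into a library. They call the cells raw Tregs. Separate mice for the replicates of a genotype are not stated, and p-values then measure only the spread between these libraries, which may be technical.

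Tregs are CD4 T cells that restrain other lymphocytes. Their lineage factor Foxp3 is known to bind the regulatory regions of several helper cytokine genes and to hold down Il2 in particular, so that Tregs depend on interleukin-2 made by their neighbours. Helper cells, by contrast, are sorted by the cytokines they release: interferon-gamma, interleukin-2 and tumour necrosis factor in T helper 1 cells, interleukins 4 and 13 in T helper 2 cells, interleukin-17A in T helper 17 cells and interleukin-21 in follicular helper cells. Most of these genes are transcribed for a short time after the T cell receptor is triggered.

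Levels are given in CPM, in which every library's listed genes sum to 1000000. The Altre-KO libraries held an estimated 3266133 and 2361931 reads on listed genes, the Altre-WT libraries 1828773 and 2378955, so that 1 read was worth 0.306 and 0.423 CPM in Altre-KO and 0.547 and 0.420 CPM in Altre-WT. All 10 genes had whole numbers of estimated reads in every library. The summed CPM of 8 Treg markers, Foxp3, Il2ra, Ctla4, Ikzf2, Cd3e, Cd4, Tnfrsf18 and Il2rb, lay between 3388 and 3453 in Altre-KO and between 3518 and 3620 in Altre-WT, and none of these markers was at 0. Markers of other cells were present to different degrees: 6 of natural killer cells summed to 24.1 to 32.2 CPM in Altre-KO and 21.01 to 29.3 CPM in Altre-WT, and 6 of mast cells and basophils to 22.0 to 28.8 CPM in Altre-KO and 14.8 to 30.7 CPM in Altre-WT. Markers of CD8 T cells summed to at most 9.25 CPM, with Cd8a at 0.42 CPM or less. Those of neutrophils stayed at or under 1.26 CPM, those of hepatocytes at or under 1.69 CPM with Alb, Ttr and Apoc3 at 0 throughout, and those of platelets at or under 1.69 CPM with Pf4 at 0. Myeloid and Kupffer cell markers summed to 132.5 to 245.9 CPM in Altre-KO and 152.6 to 253 CPM in Altre-WT, more than the 10 genes together. The largest part of that sum was Lyz2, the lysozyme gene of myeloid cells, at 165.03 and 66.05 CPM in Altre-KO and 102.25 and 154.69 CPM in Altre-WT, which at 92.7 CPM per kb was above Foxp3 at 29.6. Of the other myeloid markers Csf1r lay between 28.98 and 60.11 CPM, Adgre1 between 7.11 and 21.43, and the Kupffer cell gene Cd5l between 5.50 and 12.19, while the Kupffer cell genes Clec4f and Vsig4 were at 0.55 CPM or less and at 0. B cell markers summed to 27.1 to 35.2 CPM in Altre-KO and 31.1 to 38.3 CPM in Altre-WT. The 4 endothelial markers summed to 175.1 and 209.6 CPM in Altre-KO and 180.4 and 220.7 CPM in Altre-WT, nearly all of it from Pecam1, which T cells also express. The 3 listed markers of gamma-delta and innate-like T cells summed to 0.62 and 1.69 CPM in Altre-KO and 12.6 and 4.62 CPM in Altre-WT.

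Tnf supplied most of the reads of the 10 genes, 4 others were detected throughout at lower levels, and 5 had few reads or none. Their CPM summed to 97.1 and 72.0 in Altre-KO and to 80.4 and 79.9 in Altre-WT, and Tnf made up 59.0% and 68.2% of that sum in Altre-KO and 66.7% and 58.9% in Altre-WT. Of the 10 genes, 5 were above 0 in all 4 libraries (Tnf, Ifng, Il21, Cd40lg and Ccl5), 3 were above 0 in some (Il4, Il2 and Csf2), and 2 were listed at 0 in every library (Il13 and Il17a). Among all listed genes, 51.8% were above 0 in every library and 20.6% were at 0 in every library. In a bulk sample a low level cannot tell whether few cells make a transcript or many cells make little of it. A listed 0 is also less firm than a count of 0, since the ATP synthase gene Atp5l, which every cell uses, was listed at 0 in 1 Altre-KO library. Where a 0 is a true count, a limit of 3 reads behind it (a one-sided 95% limit for counting error) is 0.919 and 1.27 CPM in Altre-KO replicates 1 and 2 and 1.64 and 1.26 CPM in Altre-WT replicates 1 and 2. The upper ends of two-sided exact 95% intervals, used where a 0 is set beside another interval, are wider, at 1.129 and 1.562 CPM in Altre-KO and 2.017 and 1.551 CPM in Altre-WT.

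**Figure D1:**
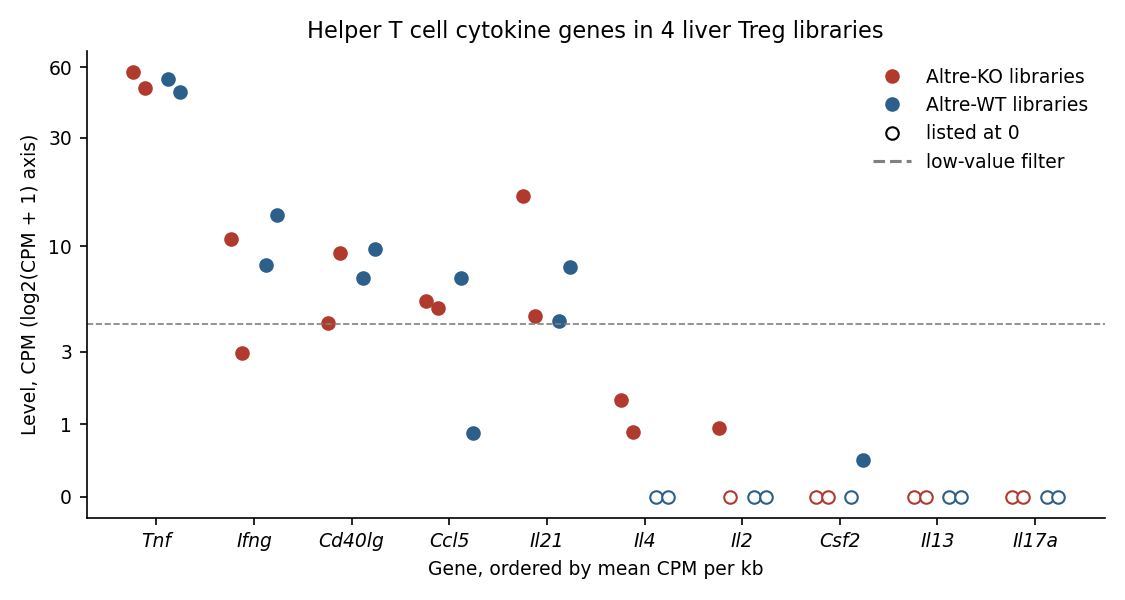
Level in CPM of each of the 10 genes in each library, on a log2(CPM + 1) axis, with Altre-KO points left of Altre-WT points, open circles for values listed at 0 and a dashed line at the low-value filter of 4.22 CPM. Tnf stands near 50 CPM in all 4 libraries, 4 genes lie between 0.84 and 16.8 CPM, and the other 5 never exceed 1.53 CPM.

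Per kb of annotated exon, the unit in which levels of different genes can be set side by side, Tnf averaged 31.6 CPM per kb over the 4 libraries and 94.0% of the genes with a known length were lower. Ifng followed with 6.90 CPM per kb (74.3% of genes lower), Cd40lg with 6.08 (72.6%), Ccl5 with 4.83 (69.9%) and Il21 with 1.61 (60.1%). Il4 averaged 0.485 CPM per kb, near the middle of all genes (50.2% lower), Il2 0.201 and Csf2 0.131. The lowest Tnf library, at 28.7 CPM per kb, was above the highest Ifng library, at 10.7, so that Tnf stood apart. No other pair of neighbours in this order was separated: Ifng ranged from 2.29 to 10.7 CPM per kb, Cd40lg from 3.43 to 7.74, Ccl5 from 0.875 to 7.41, Il21 from 0.831 to 3.20 and Il4 from 0 to 1.25. The order below Tnf also depended on the length used: by the longest coding transcript in place of all annotated exons, Ccl5 averaged 8.71 CPM per kb, Ifng 7.40, Cd40lg 6.08 and Il21 2.76.

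Tnf encodes the inflammatory cytokine tumour necrosis factor, made as a membrane protein and released by cleavage. It was at 57.25 and 49.1 CPM in Altre-KO and at 53.6 and 47.1 CPM in Altre-WT. Each genotype had 1 higher and 1 lower library, and the genotypes overlapped. On 187 and 116 reads in Altre-KO and 98 and 112 reads in Altre-WT, exact 95% intervals for counting error were 49.3 to 66.1 and 40.6 to 58.9 CPM in Altre-KO and 43.5 to 65.3 and 38.8 to 56.6 CPM in Altre-WT, so all 4 intervals overlapped. Macrophages also make Tnf, and the myeloid and Kupffer cell markers summed to 245.9 and 132.5 CPM in Altre-KO and 152.6 and 253 CPM in Altre-WT; their part in the Tnf level was not tested. The log2 fold change, Altre-KO over Altre-WT on the log2(CPM + 1) scale, was 0.08 (SE 0.23, limma adjusted p = 0.999), and its 95% interval of -0.40 to 0.55 runs from 0.759-fold to 1.47-fold. In GRCm38 with the GENCODE M21 annotation, Tnf is a protein-coding gene on the minus strand of chromosome 17 (35199381 to 35202007), and no annotated gene overlaps it.

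The start regions of these genes are shown so that their letters can be set beside the levels. RefSeq (GRCm38.p6) start windows, 250 bases before to 50 after the start, were at hand for 8 of the 10 genes. TATAA on the gene's own strand, beginning 40 to 20 bases before the start (the position of a TATA box, where the general transcription machinery can bind), was found in 5 of the 8: Tnf and Ifng, which were detected throughout, and Il2, Il13 and Il17a, which had few reads or none. It was not found in Il21, detected throughout, nor in Il4 and Csf2. Only these exact letters were searched for, and the Il4 window reads TATATATA in the same stretch. The Csf2 window (54249850 to 54250149) lies wholly outside the GENCODE gene, which ends at 54249667, so the RefSeq start differs from that annotation. A missing match therefore does not show that a gene lacks a TATA box. Of all 32851 windows of this length, 3.52% held it. GGAAA on either strand, the core letters bound by the T cell activation factor NFAT, was in all of the 8 windows but that of Il17a, and in 61.3% of all windows, and Il4 had the most matches, 5. TGANTCA, a site of the AP-1 factors, was found in Il17a and in 7.8% of all windows. Windows held a median of 4 CG pairs, against 7 over all windows, with 2 in Il2 and Il4 and 11 in Tnf. These matches are letters only and say nothing of binding. Printed 5′ to 3′, from the 5 windows with TATAA, are 2 genes detected in every library, Tnf and Ifng, and 2 that were nearly or wholly undetected, Il2 and Il17a. Capitals mark TATAA in that position, GGAAA or its complement TTTCC, and TGANTCA, and no marked matches overlap in them.
Tnf, chr17:35201958-35202257, minus strand: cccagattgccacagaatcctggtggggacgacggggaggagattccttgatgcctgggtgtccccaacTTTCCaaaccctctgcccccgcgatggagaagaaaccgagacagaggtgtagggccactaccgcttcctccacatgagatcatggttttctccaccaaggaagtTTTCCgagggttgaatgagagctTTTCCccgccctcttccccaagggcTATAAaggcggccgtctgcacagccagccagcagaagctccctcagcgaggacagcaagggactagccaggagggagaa
Ifng, chr10:118440796-118441095, plus strand: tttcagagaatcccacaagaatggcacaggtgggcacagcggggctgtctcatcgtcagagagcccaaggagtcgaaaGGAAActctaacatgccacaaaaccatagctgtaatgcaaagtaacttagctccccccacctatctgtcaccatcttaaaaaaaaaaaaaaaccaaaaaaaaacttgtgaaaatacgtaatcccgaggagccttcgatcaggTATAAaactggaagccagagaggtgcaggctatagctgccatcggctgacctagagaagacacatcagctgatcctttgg
Il2, chr3:37125905-37126204, minus strand: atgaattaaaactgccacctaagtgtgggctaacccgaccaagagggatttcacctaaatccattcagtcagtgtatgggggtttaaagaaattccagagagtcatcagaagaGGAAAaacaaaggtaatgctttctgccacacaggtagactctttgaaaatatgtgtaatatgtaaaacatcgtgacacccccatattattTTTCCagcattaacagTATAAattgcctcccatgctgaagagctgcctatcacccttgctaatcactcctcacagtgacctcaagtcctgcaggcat
Il17a, chr1:20730655-20730954, plus strand: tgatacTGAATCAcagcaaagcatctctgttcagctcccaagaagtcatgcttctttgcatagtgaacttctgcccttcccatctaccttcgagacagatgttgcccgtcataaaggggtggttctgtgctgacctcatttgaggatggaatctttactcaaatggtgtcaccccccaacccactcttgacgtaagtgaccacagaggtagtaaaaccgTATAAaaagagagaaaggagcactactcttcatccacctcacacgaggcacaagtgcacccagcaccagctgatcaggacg

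Ifng, the macrophage-activating cytokine of T helper 1 cells, was at 10.7 and 2.96 CPM in Altre-KO and at 8.20 and 13.9 CPM in Altre-WT. Altre-KO replicate 2 was the low library and the other Altre-KO library lay between both Altre-WT values. The Altre-KO libraries differed from each other by more than the counting error of independent reads, with 35 reads (exact 95% interval 7.46 to 14.9 CPM) against 7 reads (1.19 to 6.11 CPM). The log2 fold change of -0.78 (SE 0.54, 95% interval -1.89 to 0.33, limma adjusted p = 0.999) rested on Altre-KO replicate 2 and was 0.0029 without it. Its start window, printed above, carries TATAA 30 bases before the start and 1 GGAAA. The gene lies on the plus strand of chromosome 10 (118441046 to 118445892). An unlisted gene on the same strand, Gm49751, overlaps it, so its reads need not all come from Ifng messenger RNA.

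Il2, the T cell growth factor on which Tregs rely, was listed at 0 in 3 of the 4 libraries. The exception was Altre-KO replicate 1, with 3 reads or 0.92 CPM (exact 95% interval 0.189 to 2.68 CPM), which was the deepest library. The exact interval of the 0 in the other Altre-KO library reaches 1.562 CPM, and those in Altre-WT 2.017 and 1.551 CPM, so no difference between the genotypes was detectable at this depth. Its window has TATAA 31 bases before the start and a TTTCC 47 bases before it. Il2 (chromosome 3, minus strand, 37120523 to 37125959) overlaps Adad1 on the other strand, a testis gene that was itself at 0 in every library.

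The T helper 2 genes were close to absent. Il4, which drives T helper 2 differentiation and antibody switching, was at 1.53 and 0.85 CPM in Altre-KO, on 5 and 2 reads, and at 0 in both Altre-WT libraries. The genotypes did not overlap in their values. Counting error did overlap, with intervals of 0.497 to 3.57 and 0.103 to 3.06 CPM in Altre-KO and of 0 to 2.017 and 0 to 1.551 CPM in Altre-WT. Of the 13966 listed genes below the low-value filter, 1.5% likewise had reads in both Altre-KO libraries and none in either Altre-WT library, and 4.32% showed the opposite. The authors' deposited table gives Il4 a log2 ratio of 10.22 with a p-value of 1. That ratio was formed with 0.001 in place of the Altre-WT mean of 0, so it sets no size.

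Il13, the T helper 2 cytokine of mucus and fibrosis, was listed at 0 in all 4 libraries, which allows up to 0.919 and 1.27 CPM in Altre-KO and up to 1.64 and 1.26 CPM in Altre-WT. Csf2, which encodes the myeloid growth factor GM-CSF, had 1 read in all, in Altre-WT replicate 2 (0.42 CPM), and was at 0 in both Altre-KO libraries and in Altre-WT replicate 1. All 3 genes lie on the minus strand of chromosome 11, Il4 (53602982 to 53618669) and Il13 (53631324 to 53634702) 12.7 kb apart and Csf2 (54247271 to 54249667) 612.6 kb from Il13. An unlisted antisense gene overlaps Csf2, and whether strand was used in counting is not given in the sources used here.

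Il17a, the neutrophil-recruiting cytokine of T helper 17 cells, was listed at 0 in all 4 libraries, with the same upper limits as Il13. Its close relative Il17f had reads in 1 library, Altre-WT replicate 1, at 0.55 CPM, and was at 0 in both Altre-KO libraries. The Il17a window printed above holds TATAA 31 bases before the start, as the Il2 window does. It lies on chromosome 1 (plus strand, 20730905 to 20734496).

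Il21, which supports B cells in germinal centres, was at 16.8 and 4.66 CPM in Altre-KO and at 4.37 and 7.99 CPM in Altre-WT. Altre-KO replicate 1 was above the other 3 libraries, which overlapped. Its 55 reads (exact 95% interval 12.7 to 21.9 CPM) exceeded the 11 reads of the other Altre-KO library (2.33 to 8.33 CPM) by more than the counting error of independent reads. The log2 fold change was 0.53 (SE 0.56, 95% interval -0.62 to 1.69, limma adjusted p = 0.999), and -0.30 without Altre-KO replicate 1. Of the 8 Treg markers, 4 were lowest in the same library (Foxp3, Il2ra, Cd3e and Ikzf2), 3 lay between the others and 1, Tnfrsf18, was highest there. Foxp3 was at 79.5 and 162.4 CPM in Altre-KO and 160.4 and 140.5 CPM in Altre-WT, Ikzf2 at 1225.6 and 1271.8 CPM in Altre-KO and 1236.3 and 1252.6 CPM in Altre-WT, and Tnfrsf18 at 292.4 and 234.98 CPM in Altre-KO and 215.4 and 225.7 CPM in Altre-WT. That library also had the largest share of its reads on listed genes, 32.8%, against 21.5% in the other Altre-KO library and 18.8% and 20.6% in Altre-WT. Bcl6, the follicular helper factor, was at 14.1 and 27.9 CPM in Altre-KO and at 14.8 and 22.3 CPM in Altre-WT, so it was not high in that library. The part of any of these in the Il21 value was not tested. Il21 (chromosome 3, minus strand, 37222759 to 37232636) has 5259 bases of annotated exon, against 3072 in its longest coding transcript. It also overlaps an unlisted antisense gene, so its reads need not all come from coding Il21 messenger RNA.

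**Figure D2:**
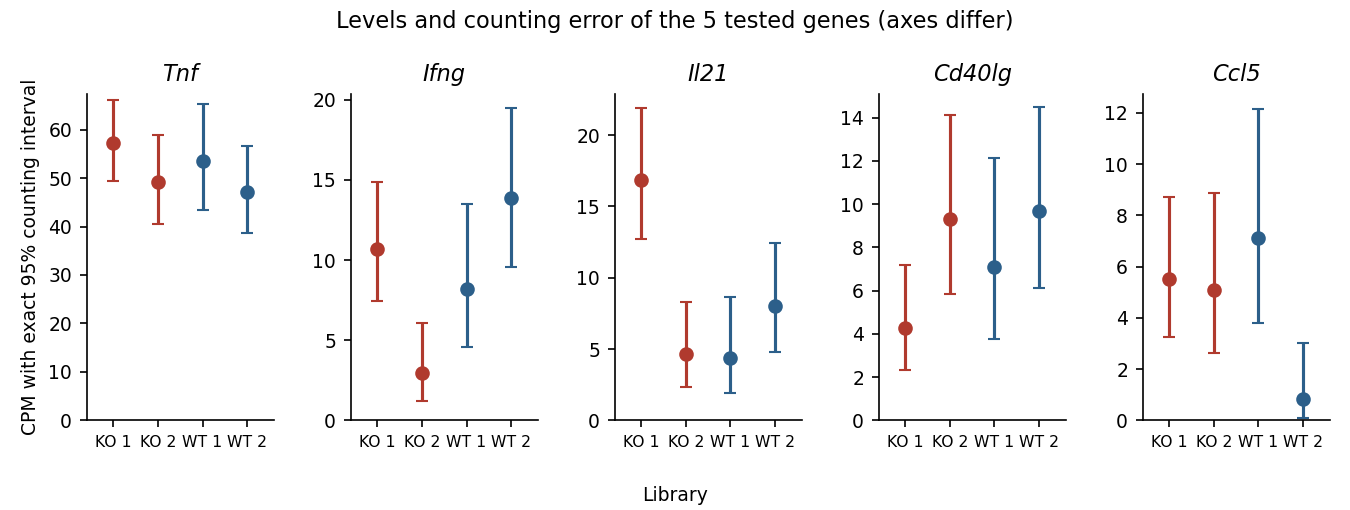
Level in CPM of the 5 genes that passed the low-value filter, by library, Altre-KO left of Altre-WT, with exact 95% intervals that cover counting error only. The intervals of the 4 Tnf libraries overlap, whereas Altre-KO replicates 1 and 2 separate for Ifng (10.7 and 2.96 CPM) and Il21 (16.8 and 4.66 CPM), and Altre-WT replicates 1 and 2 for Ccl5 (7.11 and 0.84 CPM).

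Cd40lg encodes the membrane ligand by which helper cells license B cells and dendritic cells. It was at 4.29 and 9.31 CPM in Altre-KO and at 7.11 and 9.67 CPM in Altre-WT, with Altre-KO replicate 1 lowest and the genotypes overlapping. The counting intervals of the Altre-KO libraries, 2.34 to 7.19 and 5.84 to 14.1 CPM, overlapped. The log2 fold change was -0.33 (SE 0.51, 95% interval -1.40 to 0.73, limma adjusted p = 0.999), and 0.15 without Altre-KO replicate 1. Cd40lg lies on the plus strand of chromosome X (57212143 to 57224042).

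Ccl5, a chemokine stored by memory and cytotoxic lymphocytes, was at 5.51 and 5.08 CPM in Altre-KO and at 7.11 and 0.84 CPM in Altre-WT. Altre-WT replicate 2 was low and the other 3 libraries were close together. The 2 reads of that library (exact 95% interval 0.102 to 3.04 CPM) lay below the 13 reads of the other Altre-WT library (3.79 to 12.2 CPM) by more than the counting error of independent reads. The log2 fold change was 0.70 (SE 0.69, 95% interval -0.72 to 2.13, limma adjusted p = 0.999), and -0.37 without Altre-WT replicate 2. The natural killer receptor gene Klrb1c, chosen after its values were seen, was lowest in the same library: it was at 5.51 and 5.50 CPM in Altre-KO and at 10.4 and 1.26 CPM in Altre-WT. The rest of the list was mixed. Ncr1 was highest there, at 1.84 and 1.27 CPM in Altre-KO and 0 and 2.10 CPM in Altre-WT. The perforin gene Prf1 was at 16.84 and 10.16 CPM in Altre-KO and 16.40 and 16.39 CPM in Altre-WT. Klre1 and Klra8 were at 0 in that library and also in Altre-KO replicate 2. Gzma was low in both Altre-WT libraries, at 6.12 and 7.20 CPM in Altre-KO and 1.09 and 1.26 CPM in Altre-WT. Over all 6 natural killer markers the sums were 32.2 and 24.1 CPM in Altre-KO and 29.3 and 21.01 CPM in Altre-WT, and none of the 6 was at 0 throughout. Their part in the Ccl5 value was not tested. Ccl5 is on the minus strand of chromosome 11 (83525778 to 83530518).

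Across genotypes, none of the 10 genes was called changed. Tested were the 5 with at least 4.22 CPM in at least 2 libraries, in a limma fit over 10486 genes, of which 4 (0.0381%) passed an adjusted p of 0.05. None of the 5 had an unadjusted p under 0.05, which 3.66% of the tested genes had, and in none did the libraries of the genotypes separate, which they did for 30.8% of the tested genes. Tnf, Il21 and Ccl5 had positive and Ifng and Cd40lg negative log2 fold changes. Between these libraries, the interval of Tnf does not reach a 2-fold change in either direction. That of Ccl5 runs from 0.605-fold to 4.38-fold and that of Ifng from 0.269-fold to 1.26-fold, so these data bound them less tightly. Since separate mice are not stated, none of these intervals need bound a difference between mice. The authors' deposited table, which put 3 of the 24452 listed genes (0.0123%) under an adjusted p of 0.05, likewise has none of the 10 among them.

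**Figure D3:**
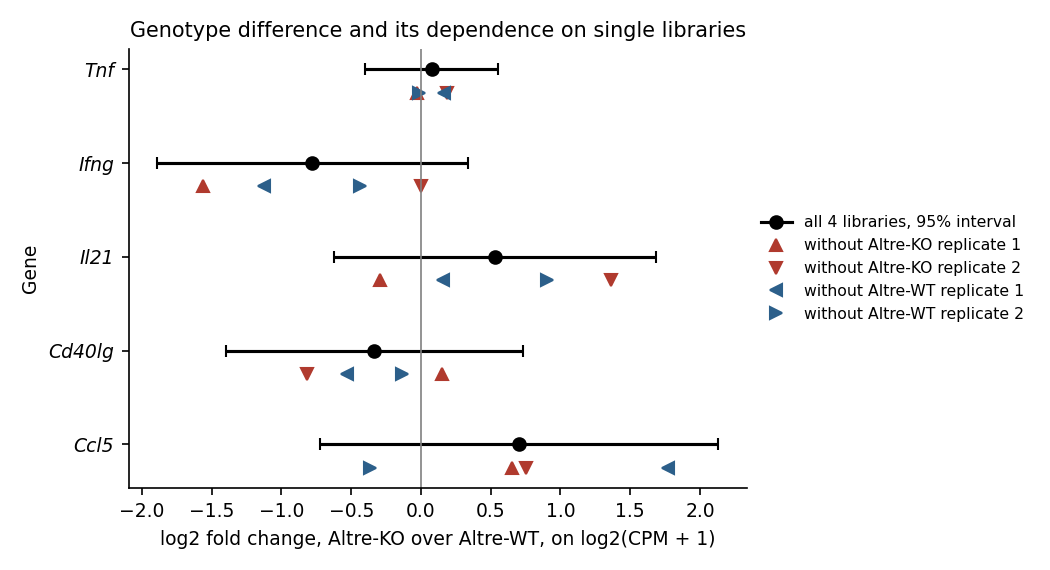
Log2 fold change, Altre-KO over Altre-WT, of the 5 tested genes with its 95% limma interval (black), and the value with each library left out (triangles). The triangles of all 5 genes fall on both sides of 0. Those of Tnf stay between -0.03 and 0.19, and the highest of Ifng is at 0.0029.

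Most receptor genes of these ligands had reads in every library. Of 20 receptor genes listed, 18 were above 0 in every library and 1, the decoy receptor gene Il13ra2, was at 0 in all. Their median level was 5.06 CPM per kb, against 1.05 for the 10 ligands. The highest were the interleukin-2 receptor chain genes Il2rb, with an average of 160.9 CPM per kb, and Il2rg, the chain shared with the interleukin-4 and interleukin-21 receptors, with 114.9. The remaining chain, Il2ra, averaged 34.0. Tnfrsf1b, the tumour necrosis factor receptor typical of Tregs, averaged 91.8 CPM per kb and was at 307 and 349.7 CPM in Altre-KO and at 352.7 and 391.8 CPM in Altre-WT. Il4ra was at 484 and 454 CPM in Altre-KO and at 483 and 429.6 CPM in Altre-WT, Il21r at 171 and 160 CPM in Altre-KO and at 197 and 156 CPM in Altre-WT, and Ifngr1 at 266 and 220.2 CPM in Altre-KO and at 223 and 217 CPM in Altre-WT. Cd40, the receptor of Cd40lg and a gene of antigen-presenting cells, was at 0.92 and 0 CPM in Altre-KO and at 1.64 and 1.68 CPM in Altre-WT. Of the 15 receptor genes tested none passed, with 6 higher and 9 lower and a median log2 fold change of -0.09, against 5020 higher and 5466 lower and -0.01 over all tested genes. Il2rg had a small unadjusted p: it was at 244.3 and 238.8 CPM in Altre-KO and at 301 and 313 CPM in Altre-WT (log2 fold change -0.34, SE 0.15, limma adjusted p = 0.999).

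Other T cell cytokines covered a wide range. Of 27 listed, 19 were above 0 in every library and 4, Il3, Il9, Il12a and Il22, at 0 in all, with a median of 4.44 CPM per kb. The lymphotoxin gene Ltb averaged 654.4 CPM per kb, Il16 99.2 and Tnfsf11, the RANK ligand gene, 32.9, close to Tnf. None of the 16 tested passed, with 13 higher and 3 lower and a median log2 fold change of 0.11. The smallest p values belonged to Tnfsf14, at 25.4 and 19.5 CPM in Altre-KO and at 9.30 and 17.2 CPM in Altre-WT (log2 fold change 0.76 with SE 0.38, adjusted p = 0.999 by limma), and Tnfsf11, at 93.4 and 73.7 CPM in Altre-KO and at 67.3 and 60.1 CPM in Altre-WT (0.38, SE 0.21, limma adjusted p = 0.999). Of 10 genes listed as T cell chemokines the highest per kb were Ccl4 (9.77), Ccl3 (9.30) and Ccl9 (8.40). The list label does not show that T cells were their source here. None of the 4 tested passed, 3 higher and 1 lower, with a median of 0.20. Ccl9 was at 29.4 and 36.0 CPM in Altre-KO and at 7.11 and 29.9 CPM in Altre-WT (log2 fold change 1.08, SE 0.43, limma adjusted p = 0.999), its low value in Altre-WT replicate 1. Of the myeloid markers, Adgre1 (7.11 CPM) and Csf1r (28.98 CPM) were also lowest in that library. Lyz2, Cd5l and Cd68 were lowest in Altre-KO replicate 2 instead, and Clec4f and Vsig4 were near or at 0. The part of myeloid cells in the Ccl9 value was not tested.

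**Figure D4:**
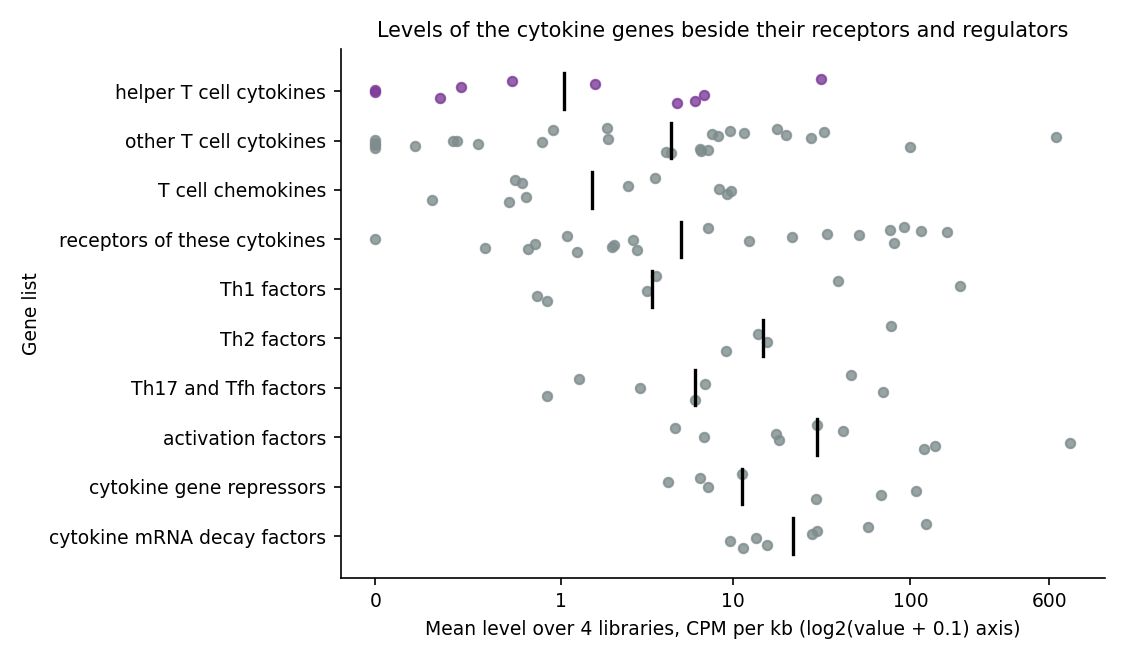
Mean level over the 4 libraries in CPM per kb (log2(value + 0.1) axis) of each listed gene in the 10 cytokine genes (purple) and in 9 related lists (grey), with the median of each list as a black bar. The median of the 10 genes, 1.05 CPM per kb, lies left of that of every other list, and Tnf, at 31.6, is the highest of the 10.

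Factors that drive or hold back these genes were expressed unevenly. Among T helper 1 factors Stat4 averaged 39.3 CPM per kb, while the lineage factor Tbx21 averaged 3.66 CPM per kb and was at 6.74 and 8.04 CPM in Altre-KO and at 8.20 and 13.45 CPM in Altre-WT. Of the T helper 2 factors Stat6 averaged 77.9 CPM per kb, Irf4 15.7 and Maf 14.0. Among the T helper 17 and follicular factors Batf averaged 69.8 and Stat3 46.4 CPM per kb. Activation factors ranged from 4.70 (Rel) to 786.3 CPM per kb (Junb), with a median of 29.8, Jun at 137.5 and Fos at 119.7. Genes listed as repressors ranged from 4.31 (Prdm1) to 107.3 CPM per kb (Ikzf2, Helios), with Ikzf1 at 68.6 and Foxp3 at 29.6. Their median of 11.4 was the level of Satb1, and Prdm1 and Runx1 (6.55) lay below Ifng. The list label does not show that each of them represses these cytokine genes in these cells. Factors that act on the decay of cytokine messenger RNAs ranged from 9.64 (Rc3h2) upwards with a median of 21.9, with Zfp36l2 at 121.8, Zfp36l1 at 58.1 and Zfp36 at 29.9.

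None of these factors passed the test between genotypes. All 4 tested T helper 1 factors were lower in Altre-KO (median log2 fold change -0.16), as were 3 of 4 T helper 2 factors (-0.22). So were 3 of 5 T helper 17 and follicular factors (-0.06), 5 of 7 genes listed as repressors (-0.14) and 6 of 8 decay factors (-0.12). Of 9 activation factors 8 were lower, with a median of -0.24 and 3 at an unadjusted p under 0.05. Over all 10486 tested genes 5466 were lower, with a median of -0.01, and 3.66% had an unadjusted limma p under 0.05. Fos was at 170.2 and 249 CPM in Altre-KO and at 306 and 401 CPM in Altre-WT (log2 fold change -0.76 with SE 0.18, adjusted p = 0.683 by limma), and Nfatc3 at 156 and 208.7 CPM in Altre-KO and at 235.7 and 227 CPM in Altre-WT (-0.36, SE 0.17, limma adjusted p = 0.999).

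On the chromosome, some of the genes with few reads or none sat beside genes with many more reads. Neighbours here are the nearest listed protein-coding genes that do not overlap the gene itself. Il4 and Il13 lie between Kif3a, a motor protein gene at 9.19 and 5.08 CPM in Altre-KO and at 3.83 and 8.41 CPM in Altre-WT, and Rad50, a DNA repair gene at 80.5 and 78.3 CPM in Altre-KO and at 93.5 and 68.9 CPM in Altre-WT, which is 14.8 kb from Il13. Il2 and Il21 are neighbours 96.8 kb apart. Closest to Il2 is Adad1, which overlaps it and was at 0 in every library. On the far side of Il2 from Il21, the nearest gene without overlap, 4932438A13Rik, lies 67.5 kb away. It was at 462 and 724 CPM in Altre-KO and at 635 and 677 CPM in Altre-WT. Tnf lies between 2 lymphotoxin genes, Lta 1.16 kb away at 49.9 and 34.3 CPM in Altre-KO and at 40.5 and 29.0 CPM in Altre-WT, and Ltb 3.06 kb away at 1183 and 939 CPM in Altre-KO and at 978 and 868 CPM in Altre-WT. All 3 genes of that cluster were thus detected in all libraries. Csf2 had neighbours without reads on both sides, with Il3 and P4ha2 at 0 in every library, and Il17a had Il17f and Pkhd1 at or below 2.10 CPM. Cd40lg is 7.44 kb from Arhgef6, at 173.6 and 188 CPM in Altre-KO and at 219.8 and 198 CPM in Altre-WT, and Vgll1 on its other side was at 0 in every library. Ccl5 lies between Heatr9, at or below 0.42 CPM, and Ccl9. The nearest listed neighbours of Ifng were Dyrk2, 409.7 kb away and at 49.8 CPM or more in every library, and Iltifb at or below 1.64 CPM, whose reads could be split with its near-identical copy Il22.

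**Figure D5:**
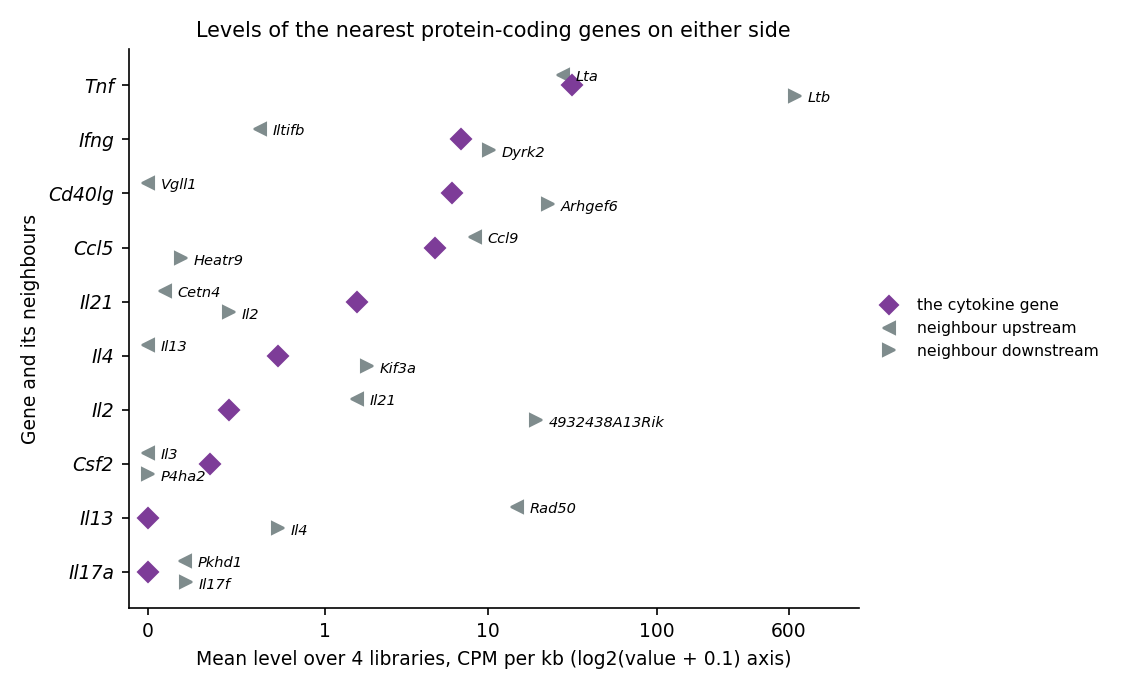
Mean level over the 4 libraries in CPM per kb (log2(value + 0.1) axis) of each of the 10 genes (diamonds) and of its neighbours (triangles). Neighbours are the nearest listed protein-coding genes upstream and downstream that do not overlap it, so Adad1, which overlaps Il2, is not drawn. Rad50 (14.9 CPM per kb) and Kif3a (1.85) flank Il13 (0) and Il4 (0.485), and Ltb (654.4) and Lta (27.8) flank Tnf (31.6).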

How the data were processed

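The labels' protocols name the RNeasy Micro kit for extraction and a SMARTER mRNA kit for libraries. The submitters' processing notes name STAR, cutadapt, DESeq2 and mm10, without roles, counter or annotation. The table holds RPM per library, deposited with 0.0001 added to every value, and CPM, scaled by the authors over listed genes. It also holds the authors' log2 ratio, p-value and adjusted p-value from an unnamed test.

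Reads were estimated from the smallest common step of the RPM values. Between 92.9% and 93.8% of values came out whole within 0.02 of a read, so the main fit used CPM and did not treat them as counts. The counting intervals did take the rounded estimated reads as counts, and an alternative limma fit used the estimated reads. Genes with 10 estimated reads at the median depth (4.22 CPM) in at least 2 libraries were tested with limma 3.58.1 (R 4.3.3, variance trend) on log2(CPM + 1), with Benjamini-Hochberg adjustment over 10486 genes and 20.8 prior degrees of freedom, so that SEs draw largely on other genes. The fit was run on simulated counts with planted changes. That checks whether the code recovers them, and not how well the fit suits the spread between these libraries. With 2 libraries against 2, an exact 2-sided permutation test cannot go below p = 0.333. Symbols were matched to GENCODE M21 (23519), RefSeq symbols (269) or synonyms (557). Lengths cover all annotated exons. Intervals are exact Clopper-Pearson intervals at 95% for counting error only. They take every estimated read as independent. No step that removes duplicate reads is named, so the true counting error may be wider. Which pairs of libraries separated was read off after the values were seen. The genes and lists were chosen with earlier results of these data known. Named were the 10 genes, their neighbours and, in each list, the 3 highest per kb and the 2 with the smallest p; other genes were named after their values were seen. Some list members are not reported here. Figures were drawn with matplotlib 3.10.9.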

Additional observations from a re-analysis of the deposited data

How the results depend on the processing

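None of the 10 genes passed the threshold under any of the 11 alternatives run. Over all genes, 4 passed as reported, 0 with no low-value filter (1305 at an unadjusted p under 0.05 by limma), 2 with a pseudocount of 0.1, and between 6 and 16 with a library left out. All 5 tested genes changed sign under at least 1 alternative. With upper-quartile scaling, which moved the median of all genes by -0.10, Tnf was at -0.027. Over the libraries left out, log2 fold changes ran from -0.032 to 0.19 for Tnf, -1.56 to 0.0029 for Ifng, -0.30 to 1.36 for Il21, -0.81 to 0.15 for Cd40lg and -0.37 to 1.77 for Ccl5. With the replicate number as a block, which the labels do not tie to shared mice (r = -0.01 between same-numbered deviations across 10486 genes), 6 genes passed. The log2 fold changes stayed at 0.08, -0.78, 0.53, -0.33 and 0.70 in that order, which the balanced design fixes in advance. Il21 and Ccl5 did not pass the stricter filter and have no value there. Il4, tested only with no filter, had a log2 fold change of 1.11 (limma adjusted p = 0.613). The number of genes above 0 in every library stayed at 5 under 6 alternatives, but a change of scale cannot turn a 0 into a read. Of 60 ranks, 58 moved by no more than their SD over libraries. That is a weak check for Il4, Il2 and Csf2, whose SDs were 32.6, 28.1 and 24.4 percentage points. Il13 and Il17a, at 0 throughout, could not move. Il2 fell to the bottom rank without Altre-KO replicate 1, and Csf2 without Altre-WT replicate 2. Depth limits the 5 genes with few reads or none.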
